A study of Homo sapiens with 9 samples.

Results

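The nuclear-encoded proteins of respiratory complexes II to V were followed in 501mel cells, an established human melanoma line, after knockdown of TBX3, a T-box transcription factor. The members are the gene symbols of the count table that start with SDHA to SDHD (alone), SDHAF, UQCR, COX4 to COX8 or ATP5, without 2 pseudogene symbols (ATP5EP2 and UQCRBP1). They number 51 of 25382 gene entries, and 43 of them passed the filter on low counts, among 14731 genes tested. Several symbols are older names, and the current one is given where a gene is first described.

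Cells were lipofected with a DsiRNA and harvested 24 h later; a DsiRNA is a synthetic double-stranded RNA from which Dicer makes the guide that silences a transcript. The groups are DsiRNA 13.6 against TBX3, DsiRNA 13.8 against TBX3 and the control DsiRNA NC1, each with 3 libraries of total RNA that the labels call biological replicates. All of them are the 1 cell line grown in the same serum-containing medium, so no group stands for normal melanocytes, and control cells went through lipofection too. The series asks what TBX3 does in pigment cells in which signalling through the melanocortin receptor MC1R is lost.

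Complex II, succinate dehydrogenase, passes electrons from the citric acid cycle to ubiquinone and is built from nuclear genes alone. Complex III moves those electrons to cytochrome c, and complex IV, cytochrome c oxidase, hands them to oxygen. Complex V, the ATP synthase, lets protons back through its membrane rotor to drive a catalytic head that makes ATP, with a peripheral stalk holding the head still. Complexes III, IV and V combine nuclear with mitochondrially encoded subunits, and melanoma cells vary in how much they rely on these enzymes.

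Libraries held 38105026 to 52272147 counted reads, and replicates of a group correlated at 0.991 to 0.995 (Pearson, log2 CPM across genes). CPM, the unit of all levels, is the read count divided by the library's size after TMM scaling, and differences are given as log2 fold changes ± SE. A member "rose", "fell" or "changed" where the adjusted p was under 0.05 over all 14731 genes. TBX3 itself had 46.4, 41.0 and 39.4 CPM in the 13.6 libraries, 36.1, 33.7 and 36.2 CPM in the 13.8 libraries and 88.6, 83.8 and 84.0 CPM in the control libraries. It fell with 13.6 (−1.02 ± 0.07, adjusted p = 1.27e-07) and with 13.8 (−1.27 ± 0.07, adjusted p = 1.03e-08), and it was higher with 13.6 than with 13.8 by 0.26 ± 0.07 (adjusted p = 0.00699). The 7 melanocyte lineage markers summed to 13811 to 14965 CPM with 13.6, 17292 to 18105 CPM with 13.8 and 13333 to 15343 CPM in control cells and were above 0 in all 9 libraries. Of these 7, 2 rose and 3 fell with 13.6, and 3 rose and 3 fell with 13.8. The higher sums with 13.8 are therefore not a rise of the list as a whole. The 9 fibroblast markers summed to 7.21 to 8.80 CPM, 24.8 to 25.9 CPM and 5.53 to 6.76 CPM in the same order of groups. Of the 7 tested, 7 rose with 13.8, beside 27.5% of all genes, and 2 rose and none fell with 13.6, beside 24.9% and 25.0%. Sums of the 4 keratinocyte markers were 42.8 to 44.5 CPM, 39.2 to 44.3 CPM and 41.0 to 46.2 CPM, with KRT5 at 0 in all libraries. The 4 leukocyte markers gave 99.9 to 105.8 CPM, 77.2 to 83.02 CPM and 73.2 to 78.9 CPM, and the 3 endothelium markers reached at most 0.78 CPM in any library. Of 3 leukocyte markers tested, 1 rose and none fell with each DsiRNA. The 1 endothelium marker tested, VWF, fell with 13.6 (−1.46) and did not pass with 13.8 (−0.05). The part of these markers in the members' differences was not tested. In bulk RNA, fewer cells of a kind and less RNA per cell cannot be told apart.

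Several libraries stood apart from their own group in the members as a whole, which bears on every count that follows. In control replicate 3, 41 of 43 members lay above the mean of the control group, with a median deviation of 0.25 on the log2 scale. In control replicate 1 none of the 43 did (median −0.16), in 13.6 replicate 1 only 1 did (−0.12) and in 13.8 replicate 1 only 4 (−0.16). The 82 genes of cytosolic ribosomal proteins deviated alike, by 0.25, −0.14, −0.11 and −0.17 in these libraries. The 945 other genes with transcripts under 1 kb did so too (0.18, −0.11, −0.08 and −0.14), while the 5310 genes with transcripts over 3 kb moved the other way (−0.09, 0.06, 0.04 and 0.07). Why these libraries deviate was not tested. Counts over all members and by complex were therefore repeated in 2 ways chosen after seeing the data. One left out control replicate 3, 13.6 replicate 1 and 13.8 replicate 1. As these are the highest control library and the lowest library of each DsiRNA, while the low control replicate 1 was kept, this choice by itself moves the members up against control. The other left out the first replicate of every group and kept the high control replicate 3.

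**Figure D1:**
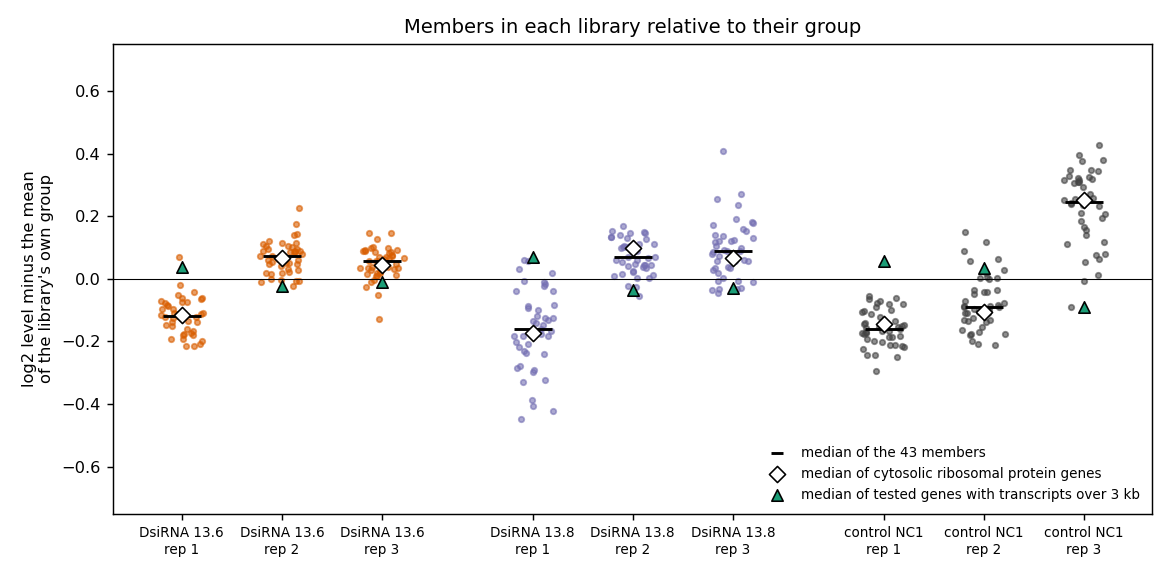
Log2 level of each of the 43 members in each library minus the mean of the library's own group (dots), with medians of the members, of cytosolic ribosomal protein genes and of genes with transcripts over 3 kb. Control replicate 3 stands at a member median of 0.25 and the first replicate of each group at −0.12 to −0.16, and the ribosomal protein genes follow the members in all 9 libraries.

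With DsiRNA 13.6, 14 of the 43 members fell and 2 rose, and 27 did not pass the test. Over all tested genes 25.0% were called lower and 24.9% higher, and the members' median log2 fold change was −0.18, against −0.01 for all genes. With DsiRNA 13.8, 13 members rose and 5 fell, beside 27.5% of all genes called higher and 27.9% called lower, with a median of 0.12 for the members and 0.01 for all genes. The share of members that rose with 13.8 (30.2%) is near the background. Summed over the 43 members, the level was 6067, 6820.4 and 6763 CPM in the 13.6 libraries, 7080.1, 8023 and 8103 CPM in the 13.8 libraries and 6716, 7130.3 and 8420.1 CPM in the control libraries. These sums overlap between control and either DsiRNA, and the highest is that of control replicate 3.

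Without the first replicate of every group, 14 members fell and 1 rose with 13.6 (median −0.18), and 5 fell and 12 rose with 13.8 (median 0.12). Of 14745 genes then tested, 3226 fell and 3185 rose with 13.6, and 3823 fell and 3661 rose with 13.8. Without control replicate 3 and the first replicates of 13.6 and 13.8, 9 fell and 12 rose with 13.6 (median 0.07), and 5 fell and 32 rose with 13.8 (median 0.33), an upward shift in the direction that this choice of libraries sets. Of 14788 genes then tested, 3857 fell and 3904 rose with 13.6, and 4420 fell and 4310 rose with 13.8. Leaving out control replicate 3 alone gave 9 lower and 3 higher with 13.6 and 5 lower and 23 higher with 13.8. Of 15010 genes then tested, 3765 were lower and 3705 higher with 13.6, and 4271 lower and 4181 higher with 13.8. Leaving out 13.6 replicate 1 alone gave 9 lower and 2 higher with 13.6, beside 3247 lower and 3188 higher of 14971 genes. With 13.8, only 6 members rose without 13.8 replicate 2, and there were 7 without 13.8 replicate 3, 8 without control replicate 1 and 7 without control replicate 2. In the same order, 3541 of 14922, 3550 of 14911, 3740 of 14959 and 3700 of 15009 genes rose. Testing with no filter on low counts left 7 members higher with 13.8, beside 3899 of 22133 genes. The count of 13 members higher with 13.8 therefore depends on single libraries, and so does the median with 13.6. Of the calls, 10 of 16 with 13.6 and 10 of 18 with 13.8 held under all 16 alternatives tried. With 13.6 these were lower SDHA, SDHC, SDHD, UQCRC1, UQCRC2, COX7A2L, ATP5B, ATP5C1 and ATP5D and higher ATP5F1. With 13.8 they were lower SDHA, ATP5B, ATP5O, ATP5J and ATP5SL and higher SDHC, SDHAF2, UQCR10, ATP5A1 and ATP5F1. Single libraries that ended the other calls are named with each gene below. With control replicate 3 and the first replicates of 13.6 and 13.8 left out together, the falls with 13.6 of ATP5H (−0.11), ATP5O (−0.08), COX4I1 (−0.12), COX7C (−0.10) and SDHAF2 (−0.15) did not pass. Testing with no filter ended the calls of ATP5H, COX4I1 and COX7C with 13.6 and of ATP5I, ATP5J2, COX7B, COX7C, SDHB and UQCRB with 13.8. Fitting only the 2 groups compared ended those of ATP5O with 13.6 and of ATP5I and SDHB with 13.8. Leaving out the first replicate of every group ended ATP5O (−0.21) and ATP5SL (0.27) with 13.6 and SDHB (0.18) and UQCRC2 (0.14) with 13.8.

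By complex, without the first replicate of every group, 4 members of complex II fell and none rose with 13.6 (1 fell and 2 rose with 13.8). The same counts were 2 fell and none rose in complex III (none and 2 with 13.8), 3 and none in complex IV (none and 3 with 13.8), and 5 fell and 1 rose in complex V (4 and 5 with 13.8). With control replicate 3 and the first replicates of 13.6 and 13.8 left out, the counts with 13.6 were 3 lower and 2 higher in complex II, 2 and 3 in complex III, 1 and 1 in complex IV and 3 and 6 in complex V. With 13.8 they were then 1 lower and 4 higher in complex II, 0 and 6 in complex III, 0 and 9 in complex IV and 4 and 13 in complex V. Counts over all genes in these 2 settings are given above.

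**Figure D2:**
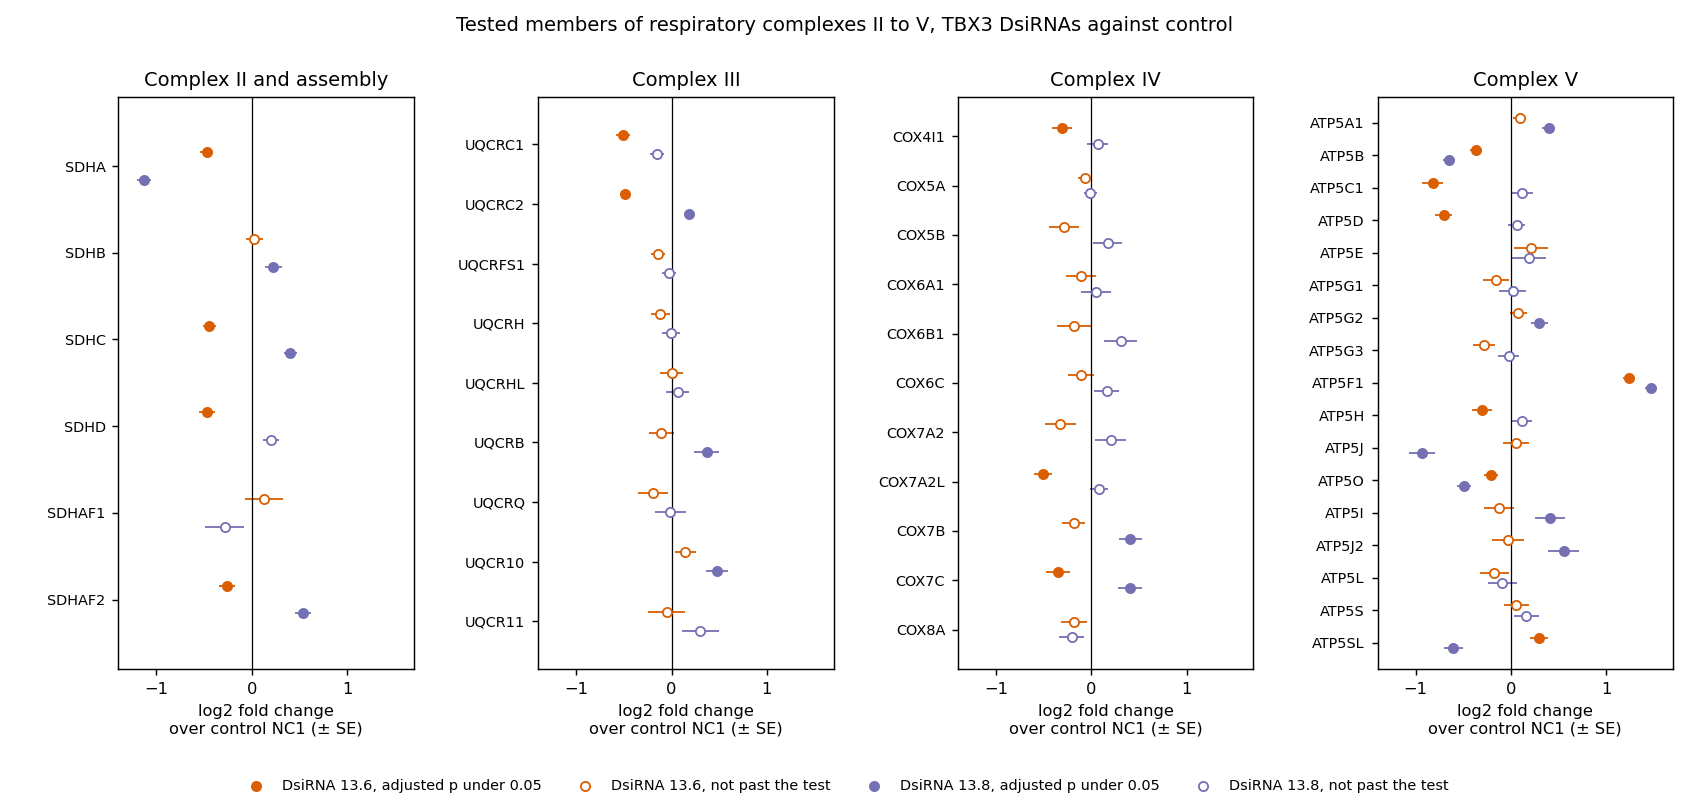
Log2 fold change over control, with SE, of the 43 tested members by complex, for DsiRNA 13.6 (orange) and 13.8 (purple). Filled points passed an adjusted p of 0.05; ATP5F1 lies farthest right with both DsiRNAs (1.24 and 1.47), and SDHA farthest left with 13.8 (−1.14).

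Complex II has a head of the flavoprotein SDHA, which oxidises succinate, and the iron-sulfur protein SDHB, held in the membrane by SDHC and SDHD. Of the 6 tested complex II members, which include the assembly factors SDHAF1 and SDHAF2, 4 fell and none rose with 13.6, and 3 rose and 1 fell with 13.8. Among all genes, 25.0% fell and 24.9% rose with 13.6, and 27.5% rose and 27.9% fell with 13.8. SDHA had 132, 139 and 148 CPM in the 13.6 libraries, 91.8, 86.7 and 86.3 CPM in the 13.8 libraries and 185, 215 and 182 CPM in the control libraries. The 3 groups did not overlap, with 13.8 lowest and control highest. SDHA fell with 13.6 (−0.47 ± 0.07, adjusted p = 0.000122) and further with 13.8 (−1.14 ± 0.07, adjusted p = 3.5e-08), where it was at 0.455 of the control level, and the DsiRNAs differed by 0.66 ± 0.07 (adjusted p = 4.43e-06). Its value is uncertain, since SDHA shares most of its sequence with the pseudogenes SDHAP1, SDHAP2 and SDHAP3 and the counting could split reads among them. These averaged 27.7, 28.0 and 7.29 CPM with 13.6, 22.8, 21.5 and 7.08 CPM with 13.8 and 32.3, 36.2 and 9.07 CPM in control cells (n = 3 each), and all 3 fell with each DsiRNA too.

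The membrane anchors SDHC and SDHD, which bind ubiquinone, were both lowest in the 13.6 libraries. SDHC had 106, 111 and 118 CPM with 13.6, 196, 202 and 207 CPM with 13.8 and 145, 147 and 164 CPM in control cells. All 3 libraries of 13.6 lay below and all 3 of 13.8 above the controls, and SDHC fell with 13.6 (−0.44 ± 0.06, adjusted p = 8.51e-05) and rose with 13.8 (0.40 ± 0.06, adjusted p = 0.00014). SDHD had 69.7, 72.8 and 72.8 CPM with 13.6, 107, 118 and 119 CPM with 13.8 and 87.7, 96.6 and 114 CPM in control cells. The 13.6 libraries were the lowest 3, and SDHD fell with 13.6 (−0.47 ± 0.09, adjusted p = 0.00052), while the 13.8 libraries overlapped the controls (0.20 ± 0.09, adjusted p = 0.0574).

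SDHAF2, which helps to attach the flavin to SDHA, had 27.5, 30.2 and 29.1 CPM with 13.6, 45.9, 54.9 and 50.3 CPM with 13.8 and 32.3, 33.6 and 38.2 CPM in control cells, with no overlap between groups. It rose with 13.8 (0.54 ± 0.08, adjusted p = 0.000118) and fell with 13.6 (−0.26 ± 0.09, adjusted p = 0.0216), and the 13.6 call ended when leaving out control replicate 3 (−0.19), 13.6 replicate 1 (−0.22) or 13.6 replicate 3 (−0.27). SDHB rose with 13.8 (0.23 ± 0.09, adjusted p = 0.0455) and did not pass with 13.6 (0.03 ± 0.09). The SDHB call ended without control replicate 1 (0.13) or 2 (0.22), or 13.8 replicate 2 (0.22) or 3 (0.17). SDHAF1, a chaperone of iron-sulfur insertion into SDHB, was low at 6.47, 8.71 and 7.30 CPM with 13.6, 3.99, 5.62 and 7.26 CPM with 13.8 and 5.84, 6.34 and 8.41 CPM in control cells, and passed neither test.

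In complex III, whose electron path runs over cytochrome b, the Rieske protein and cytochrome c1, 2 of 9 tested members fell and none rose with 13.6, and 3 rose and none fell with 13.8. The shares that fell with 13.6 (22.2%) and rose with 13.8 (33.3%) are near those of all genes (25.0% and 27.5%). In the other direction, 24.9% of all genes rose with 13.6 and 27.9% fell with 13.8. The 2 that fell with 13.6 are the large matrix-facing core proteins. UQCRC1 had 219, 244 and 245 CPM with 13.6, 284, 313 and 309 CPM with 13.8 and 317, 327 and 364 CPM in control cells. It fell with 13.6 (−0.51 ± 0.07, adjusted p = 6.29e-05), and although the 13.8 libraries also lay below the controls, that difference did not pass (−0.15 ± 0.07, adjusted p = 0.0854). UQCRC2 had 178, 179.9 and 183 CPM with 13.6, 291, 288 and 281 CPM with 13.8 and 238, 263 and 254 CPM in control cells. Groups did not overlap: UQCRC2 fell with 13.6 (−0.48 ± 0.06, adjusted p = 1.07e-05) and rose with 13.8 (0.19 ± 0.06, adjusted p = 0.0115).

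Among the small complex III subunits, UQCR10 had 91.3, 109 and 107 CPM with 13.6, 114, 137 and 137 CPM with 13.8 and 81.3, 86.6 and 109.8 CPM in control cells. It rose with 13.8 (0.48 ± 0.11, adjusted p = 0.00301), where all libraries lay above the controls, and did not pass with 13.6 (0.14 ± 0.11). UQCRB, a subunit beside the ubiquinone site, rose with 13.8 (0.37 ± 0.13, adjusted p = 0.0306), and did not pass without control replicate 1 (0.27) or 2 (0.31), nor without 13.8 replicate 2 (0.30) or 3 (0.33). The Rieske iron-sulfur protein UQCRFS1 had 45.7, 51.8 and 49.2 CPM with 13.6, 54.4, 53.6 and 51.6 CPM with 13.8 and 49.1, 56.1 and 56.9 CPM in control cells, overlapping throughout, and passed neither test (−0.14 ± 0.07 and −0.02 ± 0.07). UQCRQ and UQCR11 passed neither, with log2 fold changes of −0.19 and −0.05 for 13.6 and −0.01 and 0.30 for 13.8. The hinge protein UQCRH averaged 297, 321 and 322 CPM and its retrocopy UQCRHL 9.004, 9.42 and 9.003 CPM, each for 13.6, 13.8 and control. Neither passed a test, and as the copies are nearly identical the split of reads between them is uncertain.

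Of the 17 complex IV members, which surround the mitochondrially encoded catalytic core, 11 were tested: 3 fell and none rose with 13.6, and 2 rose and none fell with 13.8. The 27.3% that fell with 13.6 is near the 25.0% of all genes, and 24.9% of all genes rose. With 13.8, 18.2% rose, beside 27.5% of all genes that rose and 27.9% that fell. Members of complex IV that were not tested are tissue isoforms at or near 0. COX4I2, the lung isoform of subunit 4, had 7 reads in all 9 libraries together. Its ubiquitous counterpart COX4I1 had 224, 255 and 249 CPM with 13.6, 276, 327 and 341 CPM with 13.8 and 270.5, 277 and 355 CPM in control cells. Muscle and heart forms COX6A2 and COX7A1 had 0 and 1 read, and COX7B2 and COX8C had 8 and 5. COX6B2, known from testis, had 30 reads, of which 10 fell in a single 13.8 library. Their counterparts COX6A1 (means 217, 243 and 235 CPM for 13.6, 13.8 and control) and COX6B1 (103, 144 and 116 CPM) passed no test against control.

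COX4I1 fell with 13.6 (−0.31 ± 0.11, adjusted p = 0.029), with its 3 libraries below the controls, and overlapped them with 13.8 (0.07 ± 0.11). Leaving out a library ended this call for control replicate 3 (−0.17), 13.6 replicate 1 (−0.26) or 13.6 replicate 3 (−0.33). COX7A2L, which ties complex IV to complex III in supercomplexes, had 137, 146 and 146 CPM with 13.6, 188, 229 and 226 CPM with 13.8 and 191, 184 and 233 CPM in control cells. It was low in the 13.6 libraries alone and fell with 13.6 (−0.50 ± 0.09, adjusted p = 0.000615), while 13.8 did not pass (0.08 ± 0.09). Its paralogue COX7A2 had 154, 181 and 166 CPM with 13.6, 189, 263 and 269 CPM with 13.8 and 183, 178 and 266 CPM in control cells, with control replicate 3 far above the other controls, and passed neither test (−0.32 ± 0.16 and 0.20 ± 0.16).

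COX7C had 123, 147 and 149 CPM with 13.6, 212, 245 and 250.4 CPM with 13.8 and 151, 166 and 218 CPM in control cells. The 13.6 libraries lay below the controls, though 149 and 151 CPM all but touch, and the 13.8 libraries overlapped control replicate 3. It fell with 13.6 (−0.35 ± 0.13, adjusted p = 0.0365) and rose with 13.8 (0.40 ± 0.13, adjusted p = 0.017), but the fall was lost without control replicate 3 (−0.18) or 13.6 replicate 1 (−0.27), and the rise without control replicate 1 (0.29) or 2 (0.35), or 13.8 replicate 2 (0.37) or 3 (0.36). COX7B had 86.0, 103 and 103 CPM with 13.6, 127, 156 and 157 CPM with 13.8 and 96.4, 103 and 132 CPM in control cells. It rose with 13.8 (0.41 ± 0.12, adjusted p = 0.0126), with 1 of the 3 libraries inside the control range, and it did not pass without control replicate 1 (0.31) or 2 (0.36), nor without 13.8 replicate 2 (0.36) or 3 (0.35). The remaining tested members COX5A, COX5B, COX6C and COX8A passed neither test against control, with log2 fold changes between −0.29 and 0.17.

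Of 15 tested subunits of complex V, 5 fell and 1 rose with 13.6, and 5 rose and 3 fell with 13.8. Shares over all genes were 25.0% lower and 24.9% higher with 13.6, and 27.5% higher and 27.9% lower with 13.8. The symbol rule adds ATP5S and ATP5SL, which are no subunits, and with them the counts of 17 were 5 lower and 2 higher with 13.6 and 5 higher and 4 lower with 13.8. In its catalytic head, built of alpha and beta subunits around a turning gamma shaft, the beta subunit ATP5B (now ATP5F1B), where ATP is made, had 900.0, 973 and 952 CPM with 13.6, 771, 763 and 789 CPM with 13.8 and 1154, 1228 and 1259 CPM in control cells. The groups did not overlap, and ATP5B fell with 13.6 (−0.37 ± 0.06, adjusted p = 0.000273) and with 13.8 (−0.65 ± 0.06, adjusted p = 1.37e-06). Its alpha partner ATP5A1 (now ATP5F1A) had 411, 434 and 443 CPM with 13.6, 552, 510.4 and 527 CPM with 13.8 and 372, 436 and 399.8 CPM in control cells, and rose with 13.8 (0.40 ± 0.07, adjusted p = 0.000271) without passing for 13.6 (0.09 ± 0.07).

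Of the subunits of the central shaft, gamma and delta were low with 13.6. The gamma subunit ATP5C1 (now ATP5F1C) had 67.6, 75.9 and 81.8 CPM with 13.6, 130.5, 151 and 151 CPM with 13.8 and 114, 128 and 156 CPM in control cells. The delta subunit ATP5D (now ATP5F1D), which sits at the foot of the shaft, had 56.5, 66.1 and 60.9 CPM with 13.6, 95.2, 106 and 111 CPM with 13.8 and 89.0, 99.8 and 111 CPM in control cells. For both genes the 13.6 libraries were the lowest 3, and the 13.8 libraries overlapped the controls. ATP5C1 fell with 13.6 (−0.82 ± 0.11, adjusted p = 4.43e-05), to 0.566 of the control level, as did ATP5D (−0.71 ± 0.09, adjusted p = 2.44e-05, 0.612 of control), and neither passed with 13.8 (0.12 ± 0.11 and 0.06 ± 0.09). The epsilon subunit ATP5E (now ATP5F1E) had 126 to 214 reads a library and passed neither test (0.21 ± 0.17 and 0.19 ± 0.17). A read-through entry that shares it, SLMO2-ATP5E, had 0 reads throughout, and so had ATP5J2-PTCD1, which overlaps ATP5J2, and the counts of genes that overlap such an entry are uncertain.

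The peripheral stalk joins 4 proteins, and each of them passed at least 1 test against control. Subunit b, ATP5F1 (now ATP5PB), had 385, 405 and 409 CPM in the 13.6 libraries, 462, 474 and 465 CPM in the 13.8 libraries and 157, 172 and 178 CPM in the control libraries. All 6 knockdown libraries lay at more than 2 times each control, and ATP5F1 rose 2.36-fold with 13.6 (1.24 ± 0.06, adjusted p = 8.8e-09) and 2.76-fold with 13.8 (1.47 ± 0.06, adjusted p = 1.14e-09), the largest change of any tested member with each. The oligomycin sensitivity protein ATP5O (now ATP5PO), which caps the stalk, had 154, 168 and 172 CPM with 13.6, 132, 142 and 132 CPM with 13.8 and 179, 180.2 and 213 CPM in control cells. It fell with 13.8 (−0.49 ± 0.08, adjusted p = 9.85e-05) and with 13.6 (−0.21 ± 0.08, adjusted p = 0.0316), and the smaller fall did not pass without control replicate 3 (−0.12), 13.6 replicate 1 (−0.17) or 13.6 replicate 2 (−0.23).

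Coupling factor 6, ATP5J (now ATP5PF), had 73.8, 89.9 and 90.2 CPM with 13.6, 37.4, 43.8 and 46.7 CPM with 13.8 and 65.5, 80.3 and 98.3 CPM in control cells. The 13.8 libraries were the lowest 3, at 0.524 of the control level (−0.93 ± 0.14, adjusted p = 0.000135), and the 13.6 libraries lay among the controls (0.06 ± 0.14). Subunit d, ATP5H (now ATP5PD), fell with 13.6 (−0.30 ± 0.10, adjusted p = 0.0287) and did not pass with 13.8 (0.12 ± 0.10), and its fall did not pass without control replicate 3 (−0.16) or 13.6 replicate 1 (−0.25).

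**Figure D3:**
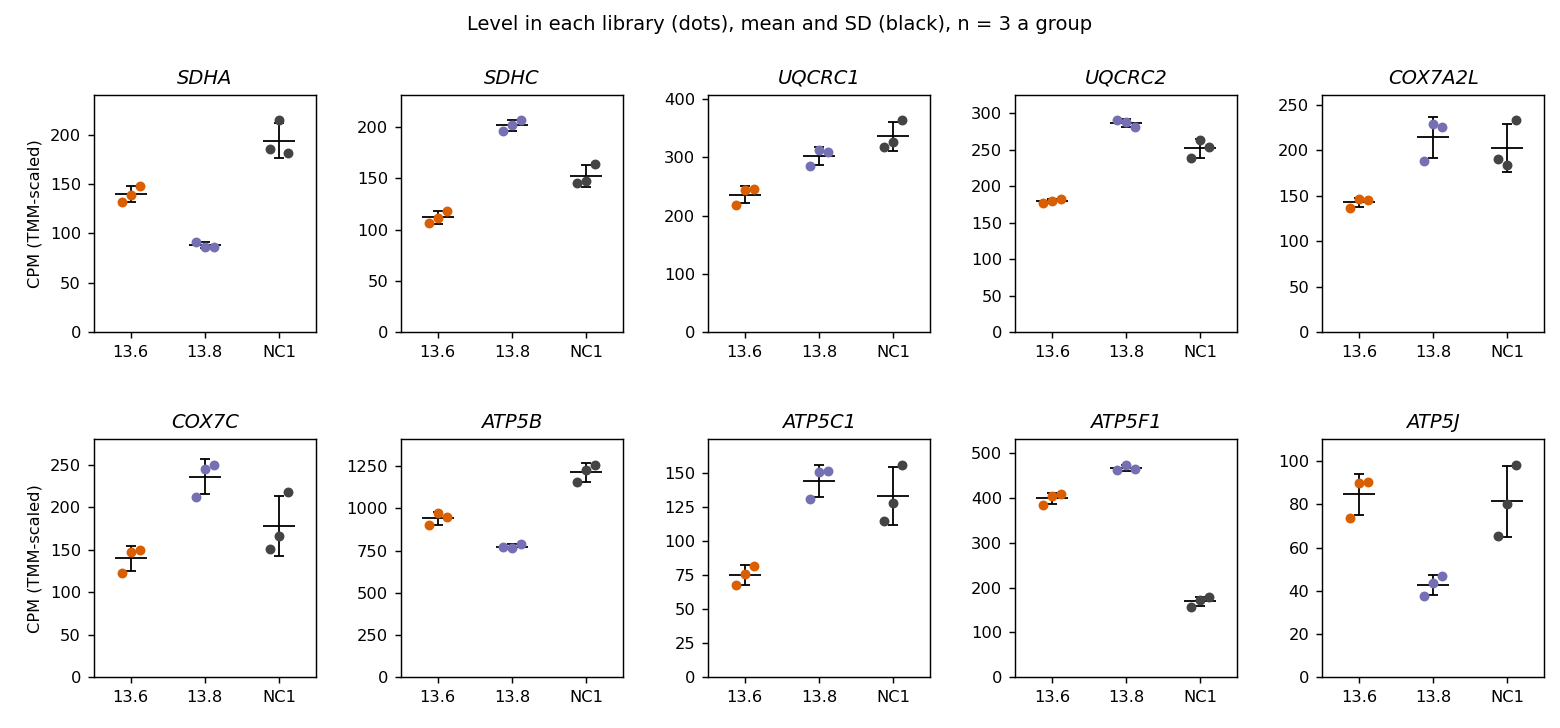
CPM of 10 members in each library (dots), with the mean and SD of each group (n = 3), for DsiRNAs 13.6 and 13.8 and control NC1; each axis starts at 0. ATP5F1 lies at 385 CPM or more in the 6 knockdown libraries and at 178 CPM or less in the controls, while SDHC, UQCRC2 and COX7C are lowest with 13.6 and highest on average with 13.8.

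The membrane rotor is a ring of identical c subunits that 3 genes encode, which differ in the targeting peptide but give the same mature protein. ATP5G2 (now ATP5MC2) averaged 276 ± 19.98 CPM with 13.6, 322 ± 24.6 CPM with 13.8 and 262 ± 31.3 CPM in control cells (SD, n = 3 each). ATP5G3 (now ATP5MC3) averaged 182 ± 19.9, 218 ± 22.2 and 222 ± 34.3 CPM and ATP5G1 (now ATP5MC1) 54.7 ± 6.05, 61.9 ± 8.55 and 61.2 ± 11.8 CPM in the same groups. Of the 3, ATP5G2 rose with 13.8 (0.30 ± 0.09, adjusted p = 0.0119), a call lost without control replicate 2 (0.25) or 13.8 replicate 2 (0.24). ATP5G1 passed neither test, nor did ATP5G3 (−0.28 ± 0.11, adjusted p = 0.0545 with 13.6), and ATP5L2, a relative of ATP5L, had 7 reads in all.

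The small membrane subunits e and f help ATP synthases to pair up. Subunit e, ATP5I (now ATP5ME), had 42.0, 50.6 and 50.7 CPM with 13.6, 55.8, 75.6 and 76.8 CPM with 13.8 and 44.4, 46.7 and 65.5 CPM in control cells. Subunit f, ATP5J2 (now ATP5MF), had 39.4, 45.3 and 43.1 CPM with 13.6, 47.8, 68.7 and 74.7 CPM with 13.8 and 37.6, 39.4 and 53.5 CPM in control cells. In both, 1 of the 13.8 libraries lay within the control range and the other 2 above it. They rose with 13.8 (ATP5I 0.41 ± 0.16, adjusted p = 0.0421, and ATP5J2 0.55 ± 0.16, adjusted p = 0.0133) and did not pass with 13.6 (−0.13 ± 0.16 and −0.03 ± 0.16). Without 13.8 replicate 2 or 3 both calls were lost (0.34 and 0.33 for ATP5I, 0.49 and 0.42 for ATP5J2), and that of ATP5I also without control replicate 1 (0.30) or 2 (0.34). Subunit g, ATP5L (now ATP5MG), passed neither test (−0.18 ± 0.15 and −0.09 ± 0.15).

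ATP5SL (now DMAC2), a factor in the assembly of complex I named for its likeness to ATP5S, had 42.9, 46.7 and 46.5 CPM with 13.6, 22.3, 25.5 and 25.3 CPM with 13.8 and 33.9, 34.1 and 43.2 CPM in control cells. The 13.8 libraries were the lowest 3, and ATP5SL fell with 13.8 (−0.60 ± 0.10, adjusted p = 0.00014) and rose with 13.6 (0.29 ± 0.10, adjusted p = 0.0212), where 1 of the libraries lay just under control replicate 3. The rise did not pass without control replicate 1 or 2 (0.23 each) or without 13.6 replicate 2 or 3 (0.27 each). ATP5S (now DMAC2L) passed neither test. Without ATP5S, ATP5SL and the SDHAF assembly factors, 13 of 39 fell and 1 rose with 13.6, and 12 rose and 4 fell with 13.8. With 13.6, 33.3% of the 39 fell, beside 25.0% of all genes, and 24.9% of all genes rose. With 13.8, 30.8% rose and 10.3% fell, beside 27.5% and 27.9% of all genes.

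Taking the mean of both DsiRNAs against control, 9 members fell, 3 rose and 31 did not pass, beside 26.9% of all genes called lower and 23.3% called higher (median −0.06 for the members and −0.01 for all genes). ATP5F1 (1.35 ± 0.06), ATP5A1 (0.25 ± 0.06) and UQCR10 (0.31 ± 0.10) rose. SDHA (−0.80 ± 0.06), ATP5B (−0.51 ± 0.05), ATP5J (−0.44 ± 0.12), ATP5O (−0.35 ± 0.06), ATP5C1 (−0.35 ± 0.09), UQCRC1 (−0.33 ± 0.06), ATP5D (−0.32 ± 0.08), COX7A2L (−0.21 ± 0.08) and UQCRC2 (−0.15 ± 0.05) fell. Of these, UQCR10 was lost with no filter (0.31) and without control replicate 1 (0.22) or 2 (0.26) and UQCRC2 without control replicate 2 (−0.12). COX7A2L was lost without control replicate 3 (−0.10), any 13.6 replicate (−0.20 to −0.22), 13.8 replicate 1 (−0.17) or the first replicate of every group (−0.20), and when genes needed a mean of 50 reads (−0.20). It was also lost without control replicate 3 and the first replicates of 13.6 and 13.8 together (−0.04). Without the first replicate of every group 8 fell and 3 rose, without control replicate 3 and the first replicates of 13.6 and 13.8 there were 8 that fell and 23 that rose, and without control replicate 3 alone 8 fell and 12 rose. In the same order, 3565 genes fell and 2940 rose of 14745, 4279 fell and 3795 rose of 14788, and 4014 fell and 3476 rose of 15010. ATP5F1, ATP5B, ATP5O and SDHA passed in 1 direction with each DsiRNA, beside 22.4% of all genes, and SDHC, SDHAF2, UQCRC2, COX7C and ATP5SL passed in opposite directions and between the DsiRNAs, beside 9.01% of all genes. These comparisons share their control libraries, so nothing is read from these counts.

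The DsiRNAs were also compared with each other, which leaves the control libraries out of the difference. With 13.6, 22 of 43 members were lower and 5 higher than with 13.8, beside 30.2% of all genes called lower and 30.9% called higher, with a median of −0.27 for the members and −0.02 for all genes. Without the first replicate of every group 23 were lower and 5 higher (median −0.25), without control replicate 3 and the first replicates of 13.6 and 13.8 there were 29 and 5 (median −0.25), and leaving out 13.8 replicate 2 gave 16 lower and 5 higher. In the same order, 4126 genes were lower and 4275 higher of 14745, 4565 and 4700 of 14788, and 3916 and 4105 of 14922. The counts by complex were 3 lower and 1 higher of 6 in complex II, 4 and 0 of 9 in complex III, 7 and 0 of 11 in complex IV and 8 and 4 of 17 in complex V with ATP5S and ATP5SL. Summed levels of complex II members were 488, 527 and 543 CPM with 13.6 and 616, 650.5 and 665 CPM with 13.8, and those of complex III 1166, 1304 and 1323 CPM with 13.6 and 1474, 1692 and 1673 CPM with 13.8. Complex IV gave 1510.5, 1760.0 and 1716 CPM with 13.6 and 1852, 2319.9 and 2363 CPM with 13.8, and complex V 2902, 3229.6 and 3181 CPM with 13.6 and 3138, 3361 and 3402 CPM with 13.8. The 13.6 sums lay below all 13.8 sums for complexes II, III and IV, and the 2 groups overlapped for complex V.

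Lowest with 13.6 relative to 13.8 was ATP5C1 (−0.94 ± 0.11, adjusted p = 8.8e-06), ahead of SDHC (−0.85 ± 0.06, adjusted p = 1.48e-07), SDHAF2 (−0.80 ± 0.08), ATP5D (−0.77 ± 0.09), COX7C (−0.75 ± 0.13), SDHD (−0.67 ± 0.09) and UQCRC2 (−0.67 ± 0.06). Higher with 13.6 were ATP5J (0.99 ± 0.14, adjusted p = 7.06e-05), ATP5SL (0.90 ± 0.10, adjusted p = 3.5e-06), SDHA, ATP5B (0.28 ± 0.06) and ATP5O (0.28 ± 0.08). All 4 tested COX7 genes were lower with 13.6: besides COX7C these were COX7B (−0.59 ± 0.12), COX7A2L (−0.58 ± 0.09) and COX7A2 (−0.53 ± 0.16). Of the 27 calls, 19 held under all 16 alternatives. The calls lost under at least 1 of them, and all without a filter on low counts, were those of ATP5G2, ATP5I, ATP5J2, COX5B, COX6B1, COX7A2, UQCR10 and UQCRB, with −0.22 to −0.58 on the log2 scale. COX5B, COX6B1, COX7A2 and UQCR10 each lost theirs without 13.6 replicate 1 (−0.36, −0.42, −0.47 and −0.26) and without 13.8 replicate 2 (−0.40, −0.43, −0.46 and −0.29) or 3 (−0.36, −0.35, −0.43 and −0.29), and COX6B1 also without 13.6 replicate 3 (−0.52) and with DESeq2 (−0.49). ATP5G2 lost its call without 13.6 replicate 1 (−0.16) or 3 (−0.24), 13.8 replicate 2 (−0.17) or 3 (−0.21), or the first replicate of every group (−0.22), and ATP5I without 13.8 replicate 2 (−0.47).

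**Figure D4:**
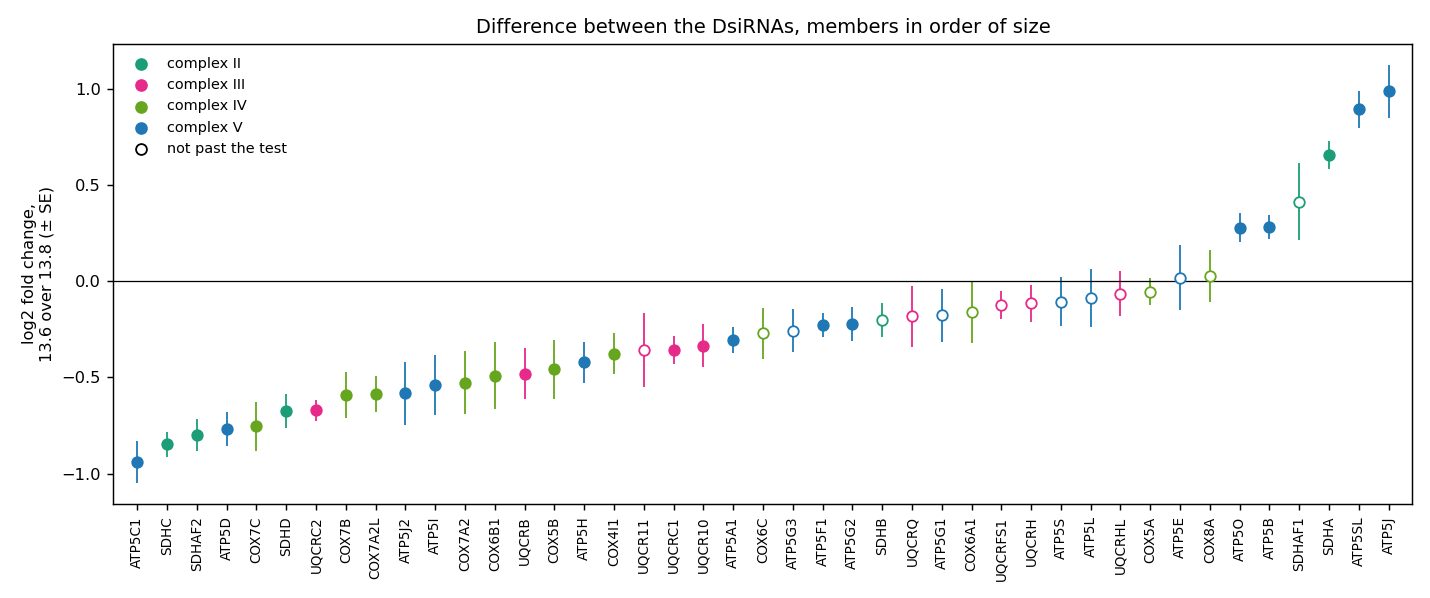
Log2 fold change of 13.6 over 13.8, with SE, for the 43 tested members in order of size, coloured by complex; filled points passed an adjusted p of 0.05. Values run from −0.94 for ATP5C1 to 0.99 for ATP5J, and 22 of the 27 that passed lie below 0.

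Other genes of the same complexes were counted beside the 24.9% of all genes called higher and 25.0% called lower with 13.6, and 27.5% and 27.9% with 13.8. Of 6 mitochondrially encoded subunits of complexes III to V, 4 rose with 13.6 (median 0.30) and 3 with 13.8 (median 0.25), and none fell, while without the first replicate of every group 3 and 1 rose. ATP8, which shares a transcript with ATP6, had 219.6, 239 and 217 CPM with 13.6, 232, 223 and 219.6 CPM with 13.8 and 157, 188 and 163 CPM in control cells, with all knockdown libraries above the controls (0.41 ± 0.07 and 0.41 ± 0.07, adjusted p = 0.000385 and 0.00034). COX1, the catalytic subunit of complex IV, passed neither test (0.03 ± 0.08 and 0.16 ± 0.08). Of 7 partners and assembly factors of complex III, 3 fell and none rose with 13.6, and 1 rose and 1 fell with 13.8. Without control replicate 3 and the first replicates of 13.6 and 13.8, 3 fell and 1 rose with 13.6. With 13.8, 1 then fell and 4 rose, again upward as this choice of libraries sets. Cytochrome c1, CYC1, the complex III subunit that the symbol rule does not reach, fell with 13.6 (−0.71 ± 0.14, adjusted p = 0.00103) and did not pass with 13.8 (0.00 ± 0.14). The assembly factor TTC19 fell with both (−0.93 ± 0.07 and −0.84 ± 0.07, adjusted p = 4.19e-07 and 6.53e-07). Unlike those of members, the calls of ATP8, CYC1 and TTC19 were not followed singly with libraries left out.

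Of 29 complex IV partners and assembly factors, 5 rose and 5 fell with 13.6, and 4 rose and 5 fell with 13.8. These shares (17.2% in each direction with 13.6) lie below those of all genes. Without the first replicate of every group 2 rose and 5 fell with 13.6 and 6 rose and 5 fell with 13.8, and without control replicate 3 and the first replicates of 13.6 and 13.8 there were 10 that rose and 5 that fell with each. Of 6 for complex V, 1 fell with 13.6 and 2 rose and 2 fell with 13.8. Among 6 tested carriers of electrons, ADP, ATP and phosphate, 2 fell with 13.6, and 2 rose and 1 fell with 13.8. The mitochondrial phosphate carrier SLC25A3, which feeds the ATP synthase, had 302, 317 and 327 CPM with 13.6, 578, 587 and 569 CPM with 13.8 and 411, 456 and 456 CPM in control cells. Its groups did not overlap, and it fell with 13.6 (−0.48 ± 0.06, adjusted p = 2.88e-05) and rose with 13.8 (0.39 ± 0.06, adjusted p = 0.000139). Cytochrome c, CYCS, fell with 13.8 (−0.33 ± 0.07, adjusted p = 0.00156) and did not pass with 13.6 (−0.06 ± 0.07). Calls of SLC25A3 and CYCS were not followed singly with libraries left out either. The further complex II assembly genes ACN9 (now SDHAF3) and C6orf57 (now SDHAF4) both rose with 13.6 (0.30 ± 0.11 and 0.69 ± 0.26), calls that ended without the first replicate of every group, and with 13.8 ACN9 fell (−0.49 ± 0.12) and C6orf57, at 0.91 to 2.46 CPM in all libraries, rose (0.76 ± 0.26).

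Promoters are shown for ATP5F1, ATP5O and SDHA, 3 of the 4 members that passed in 1 direction with each DsiRNA (ATP5B is the other), as RefSeq windows of GRCh38.p14 from 250 bases before to 50 after the annotated start. Capitals mark the core letters of NRF1 (GCGCANGCG) and YY1 (AAGATGG), factors known to drive genes of the respiratory chain, on either strand. The ATP5F1 window is chr1:111449214-111449513 on the plus strand, that of ATP5O chr21:33915755-33916054 on the minus strand, and that of SDHA chr5:218070-218369 on the plus strand.
ATP5F1: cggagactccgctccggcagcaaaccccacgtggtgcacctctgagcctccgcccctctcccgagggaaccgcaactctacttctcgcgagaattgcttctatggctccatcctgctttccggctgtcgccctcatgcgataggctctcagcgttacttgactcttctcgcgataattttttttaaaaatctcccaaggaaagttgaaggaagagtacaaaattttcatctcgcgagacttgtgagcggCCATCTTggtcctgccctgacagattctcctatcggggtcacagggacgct
ATP5O: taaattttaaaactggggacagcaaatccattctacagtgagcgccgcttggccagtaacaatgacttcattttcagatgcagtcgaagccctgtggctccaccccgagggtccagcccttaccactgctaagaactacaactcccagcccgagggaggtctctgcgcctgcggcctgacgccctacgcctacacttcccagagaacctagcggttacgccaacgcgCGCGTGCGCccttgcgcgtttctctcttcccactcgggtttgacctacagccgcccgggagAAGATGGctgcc
SDHA: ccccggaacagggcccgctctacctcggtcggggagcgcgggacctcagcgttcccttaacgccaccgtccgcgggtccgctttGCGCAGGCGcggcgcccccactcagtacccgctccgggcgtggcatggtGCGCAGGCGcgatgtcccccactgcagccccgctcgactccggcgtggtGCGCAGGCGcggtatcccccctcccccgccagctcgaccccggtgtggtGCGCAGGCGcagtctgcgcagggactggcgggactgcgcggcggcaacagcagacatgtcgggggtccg
The SDHA window holds 4 NRF1 cores, whose first bases lie at −166, −117, −68 and −19 from the start. The ATP5F1 window holds the YY1 letters on the opposite strand at −1, and the ATP5O window an NRF1 core at −23 and YY1 letters at 39. No 2 matches overlap in these windows.

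Over the 38 of 51 members with such a window, 13 (34.2%) held the NRF1 core, beside 16.5% of the 11276 tested genes with a window. The sets are not alike, since members that failed the low-count filter were kept, among them COX8C, which is 1 of the 13. The core of ETS factors such as GABPA (CCGGAAG) was found in 16 (42.1%, beside 21.4%), and that of YY1 in 9 (23.7%, beside 9.3%). GGTGTGA, the core letters of T-box sites, was in none of the 38 windows (0.0%, beside 4.0% of tested genes). Both strands were searched, and a match or its absence describes the letters of these windows only.

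In 3′ UTRs, 3 words of 7 bases were looked up because an earlier search over all genes of these libraries had singled them out, so that their relation to the fold changes here is no independent evidence. They were read from 1 GENCODE transcript a gene, and every member that holds a word and passed a test against control is shown, with the first site of each word. The word stands in capitals, on chromosome 1 for SDHC and ATP5F1, 18 for ATP5A1, 16 for COX4I1, 2 for COX7A2L, 5 for SDHA, 21 for ATP5J and 19 for ATP5SL.
SDHC, GCTCTGT: aacaatgccaGCTCTGTggcttctgcc
COX4I1, GCTCTGT: cctgcgcctgGCTCTGTcaccgccatg
COX7A2L, GCTCTGT: atggtgctttGCTCTGTgtttgtgctc
ATP5A1, GCTCTGT: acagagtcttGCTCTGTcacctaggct
ATP5F1, GATTAAC: cctgactaaaGATTAACaggttatagt
SDHC, AACTGTC: gacattaaacAACTGTCttgtcttcac
SDHA, AACTGTC: tccatgtcatAACTGTCttcatacgct
ATP5J, AACTGTC: tgcatttcatAACTGTCaaatgttctt
ATP5SL, AACTGTC: actcttctcaAACTGTCcttatgtgag
From the start of the UTR these words lie at base 349 (GCTCTGT) and 5854 (AACTGTC) in SDHC, 1246 in ATP5A1, 33 in COX4I1, 219 in COX7A2L, 267 in ATP5F1, 75 in SDHA, 86 in ATP5J and 306 in ATP5SL, and the annotated UTR of SDHC is the longest of these at 12907 bases. GCTCTGT was in 4 of 43 members (9.3%, beside 18.4% of 12836 tested genes): SDHC, COX4I1 and COX7A2L, which fell with 13.6, and ATP5A1, which did not pass with 13.6 (0.09 ± 0.07) and rose with 13.8. The 4 had a median log2 fold change of −0.38 with 13.6, against −0.16 for members without the word and −0.10 for all genes with it. With 13.8 the 3 medians were 0.24, 0.12 and −0.02 in the same order. AACTGTC was in 6 members (13.95%, beside 9.9%): SDHA, ATP5J and ATP5SL, which fell with 13.8, SDHC, which rose, and UQCR11 and ATP5E, which did not pass. Their median with 13.8 was −0.21, against 0.12 for members without it and −0.225 for all genes with it. With 13.6 the 3 medians were 0.002, −0.18 and 0.08 in the same order. As the words were picked from these same libraries, nothing is read from these differences in medians. GATTAAC was in ATP5F1 alone (2.3%, beside 5.2%), and all genes with it had medians of 0.30 with 13.6 and 0.21 with 13.8. ATP5C1 and ATP5D, lowest with 13.6, and ATP5B and ATP5O, lower with each DsiRNA, held none of the 3 words. Whether the words bear on any of these fold changes was not tested.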

How the data were processed

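For all 9 libraries of total RNA, raw counts of reads per gene symbol were taken as the authors deposited them, and the deposited normalized values were not used. The submitters' processing notes name hg19 as the build and list STAR, HTSeq, cutadapt, FastQC and DESeq2. Tool versions, gene annotation and how strand entered the counting: not given in the sources used here. Per the labels' protocols, the kit is directional. Of 25398 entries, 16 repeats of a symbol with the same counts were dropped.

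The low-count filter was filterByExpr of edgeR 4.0.16 (R 4.3.3), with a minimum of 10 reads. It kept 14731 genes, holding 99.97% of reads. After TMM scaling, 1 robust quasi-likelihood fit of all 9 libraries (a mean for each group, 6 residual degrees of freedom) gave two-sided p-values, adjusted by Benjamini-Hochberg over the tested genes. The steps were tested on simulated counts drawn gene by gene, without the library deviations described above, so that this test does not bear on them. Alternatives used DESeq2 1.42.0, limma-voom (limma 3.58.1), other scalings and filters, fits of 2 groups, a replicate block, or left out libraries.

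The members and lists were chosen with earlier results of these data known. Values in every library are given for members called with a log2 fold change of at least 0.5 and for the 2 with the smallest adjusted p of each complex. Paralogues are described beside each other, several of them by group means or total reads only. ATP5O, UQCRFS1, SDHAF1 and ATP5A1 were added after their values were seen, as were the genes named from the other lists. GENCODE release 29 and RefSeq (GRCh38.p14) gave current names, transcript lengths and sequences only, and all 51 member symbols matched.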

Additional observations from a re-analysis of the deposited data

Results flagged for a closer look

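For 5 members the DsiRNAs moved the level in opposite directions against control, each past the test, and the difference between the DsiRNAs passed too. The log2 fold change of 13.6 minus that of 13.8 was −0.85 for SDHC (−0.44 with 13.6 and 0.40 with 13.8, adjusted p of the difference 1.48e-07) and −0.80 for SDHAF2 (−0.26 and 0.54, adjusted p = 3.07e-06). For UQCRC2 it was −0.67 (−0.48 and 0.19, adjusted p = 3.14e-07) and for COX7C −0.75 (−0.35 and 0.40, adjusted p = 0.000277). ATP5SL went the other way round, with 0.90 (0.29 and −0.60, adjusted p = 3.5e-06). Among all tested genes 9.01% met the same terms. The count of 5 among 43 tested members is near that share and is not read as particular to them. The 5 differences between the DsiRNAs held under the 16 alternatives tried, and in each gene the 3 libraries of 13.6 did not overlap the 3 of 13.8. The opposite calls against control were less stable. With 13.6, those of COX7C and SDHAF2 were each lost under 4 of the 16 and that of ATP5SL under 5. With 13.8, that of COX7C was lost under 5 and that of UQCRC2 under 1, while both calls of SDHC held. Both fold changes use the same control libraries, and the difference does not.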

How the results depend on the processing

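With 1 library left out, 1 to 3 members were higher and 9 to 16 lower with 13.6 (median −0.258 to 0.0054). With 13.8, 6 to 23 were higher and 5 to 7 lower (0.04 to 0.26), and with both 2 to 12 and 8 to 11 (−0.15 to 0.10). Between the DsiRNAs, 5 to 6 were higher and 16 to 26 lower with 13.6 than with 13.8 (−0.34 to −0.21). Of 14903 to 15010 genes then tested, 3105 to 3705 were higher and 3197 to 3765 lower with 13.6. For 13.8 the same ranges were 3541 to 4181 and 3623 to 4271, and for both 3070 to 3476 and 3553 to 4014. Between the DsiRNAs they were 4100 to 4422 higher and 3916 to 4298 lower with 13.6. Without control replicate 3, 13.6 replicate 1 and 13.8 replicate 1 together, 12 were higher and 9 lower with 13.6 (median 0.0704), 32 higher with 13.8 (0.33) and 23 higher with both (0.20), a shift that this choice of the highest control and the lowest DsiRNA libraries itself sets. Signs in this setting were followed singly for part of the members only. Among these, the sign turned for ATP5I (0.15) and ATP5J2 (0.20) with 13.6, ATP5G3 with 13.8 (0.19), and COX7A2 (0.25) and ATP5G1 (0.18) with both. Each then passed the test, though none passed there with all 9 libraries. The list is not complete, since 1 complex IV member was also higher with 13.6 in this setting. With all 9 libraries, the highest log2 fold change in complex IV with 13.6 was −0.06 (COX5A). Without the first replicate of every group 1 was higher and 14 lower with 13.6, and the other member counts stayed within 1.5 times of those reported. With no filter on low counts, more genes were tested, and 7 members were higher with 13.8 and 14 lower with 13.6 than with 13.8. Of all 22133 genes tested there, 3899 were higher with 13.8 and 4283 lower with 13.6 than with 13.8. The causes were not tested.

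Deviations of same-numbered libraries over all genes correlated at −0.18 to 0.19, which was too low to treat the numbers as pairs, although the members were low in the first replicate of each group (−0.12 with 13.6, −0.16 with 13.8 and −0.16 in control). A replicate block gave 2 higher and 17 lower with 13.6, 16 and 7 with 13.8, 6 and 11 with both, and 6 and 26 between the DsiRNAs. Of all 14731 genes, the block called 4007 higher and 4003 lower with 13.6, and 4392 and 4411 with 13.8. It called 3753 higher and 4280 lower with both, and 4809 and 4772 between the DsiRNAs. DESeq2, limma-voom, other scalings, a mean of at least 50 reads and fits of 2 groups kept all member counts within 1.5 times of those reported. TBX3 passed in each. Counts of reads cannot show whether protein levels differ, and p-values rest on 3 libraries a group.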
